A study of Mus musculus with 2 samples.

Results

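*Mir6388* was the gene named by the largest number of *Meg3* ChIRP-seq peaks in mouse embryonic fibroblasts (MEFs) that lack β-actin (KO). Its peaks were taken as all rows of the KO and wild-type (WT) peak lists that give *Mir6388* as the gene of the nearest transcription start site (TSS), which were 17 of 1554 KO peaks and 14 of 1209 WT peaks. The gene was picked for its KO peak count, so the members were chosen by a measured value, and the counts and densities of its peaks describe that choice and were not tested. Of the 1558 genes named in either list, 2 had more WT peaks. The KO MEFs were derived from an embryonic lethal β-actin knockout and were set against WT MEFs, both grown in DMEM with fetal bovine serum and crosslinked with glutaraldehyde. For each genotype, 4 libraries, 2 from each of an odd and an even pool of *Meg3* probes, had been merged before peak calling. There was thus 1 list per genotype and no replicate list, and the number of cultures behind a list was not given in the sources used here. The score was 1 for every peak, so that no peak could be ranked by strength and the depth is unknown.

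ChIRP captures an RNA from fixed chromatin with biotinylated antisense DNA probes and sequences the DNA that comes down with it. *Meg3* is a long noncoding RNA of an imprinted gene cluster that associates with chromatin and with the Polycomb complex PRC2. *Mir6388* is annotated as a microRNA gene, whose transcript would fold into a hairpin from which a short RNA that represses mRNAs is cut. It lies within the immunoglobulin heavy-chain locus (*Igh*), where B lymphocytes join a variable (V), a diversity (D) and a joining (J) segment into the exon that encodes the antigen-binding part of the antibody heavy chain. The locus is not rearranged in fibroblasts. Its V segments form families that arose by repeated duplication, among them the large *Ighv1* family and the smaller *Ighv8* family. Each segment is flanked by a recombination signal, made of a heptamer and a nonamer, at which the recombinase cuts.

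In RefSeq on GRCm38, the *Mir6388* hairpin (gene ID 102465205) spans the 75 bases at chr12:115695720-115695794 on the minus strand, 3537 bp from the V segment *Ighv1-70* (chr12:115691889-115692182). No peak of either list covered the hairpin, and the nearest *Mir6388* peak began 53903 bp from it. The heptamer letters CACAGTG occurred at bases 11 to 17 of the hairpin and are in capitals in its RefSeq sequence below, which is shown because related sequences recurred along the locus. In a window of 4 Mb of chromosome 12, which runs from the end of *Brf1* into *Ptprn2* and holds the whole locus, BLAST found 16 other places where at least 80% of the hairpin aligned, at identities from 76.4% to 91.9%. All 16 were on the minus strand and 5′ of their nearest V segment, which was an *Ighv1* segment each time, with a median gap of 3517 bp. Only 2 of the 16 held the heptamer letters. The 3 closest copies and the only copy that a peak overlapped, the last one shown, read as follows on the minus strand.
Mir6388 hairpin, chr12:115695720-115695794: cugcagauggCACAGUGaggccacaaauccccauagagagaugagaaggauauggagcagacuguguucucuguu
Copy near Ighv1-63, chr12:115499019-115499092: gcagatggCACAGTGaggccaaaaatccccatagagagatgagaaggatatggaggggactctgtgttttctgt
Copy near Ighv1-62-1, chr12:115390406-115390477: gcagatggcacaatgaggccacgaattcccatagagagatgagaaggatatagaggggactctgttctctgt
Copy near Ighv1-54, chr12:115197463-115197534: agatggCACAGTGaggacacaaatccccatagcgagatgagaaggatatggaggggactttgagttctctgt
Copy near Ighv1-68, chr12:115615160-115615233: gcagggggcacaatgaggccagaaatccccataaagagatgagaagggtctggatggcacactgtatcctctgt
The first 3 copies were 91.9%, 90.3% and 90.3% identical to the hairpin over the aligned bases. The copy near the V pseudogene *Ighv1-68* was 83.8% identical and shared 29 bp with the WT peak at chr12:115615205-115615432.

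All 31 *Mir6388* peaks lay among the V segments, far from the gene that names them. The 17 KO peaks spanned 727 kb, from chr12:115105518 to 115832738, and the 14 WT peaks spanned 492 kb, from chr12:115149931 to 115641816. Their distances to the *Mir6388* start ranged from 57195 to 590184 bp in KO, with a median of 107181 bp, and from 54161 to 545750 bp in WT, with a median of 99971.5 bp. Only 7 KO and 7 WT peaks were within 100 kb of it. On the 3′ side of *Mir6388*, towards the D and J segments, lay 13 KO and 14 WT peaks. On the 5′ side lay 4 KO peaks and no WT peak. The share on the 5′ side was thus 23.5% in KO (exact Clopper-Pearson 95% interval 6.81% to 49.9%) and 0 in WT (0 to 23.2%), and the intervals cover the counting of peaks only. Of the other peaks of the lists, 45.2% in KO and 43.2% in WT lay 5′ of the start that names them. The stretch that takes the name *Mir6388*, described below, runs from chr12:115104744 to chr12:115871754 and is much shorter on its 5′ side. The shares are thus not on an equal footing, and a preference for a side was not tested.

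**Figure D1:**
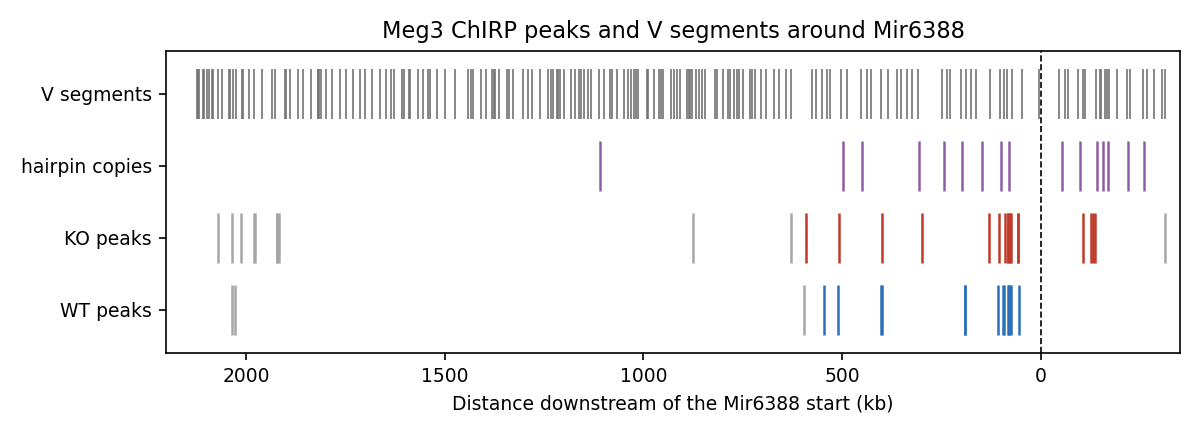
Position of V segments, copies of the Mir6388 hairpin, KO peaks and WT peaks by distance from the Mir6388 start in kb, with positive values downstream and the dashed line at the start. Coloured ticks are the 17 KO and 14 WT peaks named Mir6388 and grey ticks are other peaks; both lists are densest a short way downstream of the start, and the 4 coloured peaks upstream of the start are from KO.

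The stretch over which peaks were given this name was set by its neighbours in the lists. The midpoints between the starts of *Mir7094-2*, *Mir6388* and *Zfp386* were at chr12:115104744 and chr12:115871754, and all peaks of both lists between them, 767 kb apart, carried the name *Mir6388*. The outermost KO peak, at chr12:115105518-115105702, was centred 866 bp inside the first of these limits. The nearest peak outside, a WT peak at chr12:115100746-115100938 in an L1Md_T element, was centred 3902 bp beyond the limit and was named *Mir7094-2*. On the other side the last KO peak was centred 39131 bp inside the limit, and the next peak, a KO peak named *Zfp386*, 136211 bp outside. The stretch held 22.2 KO and 18.25 WT peaks per Mb, beside 0.590 and 0.459 over chromosomes 1 to 19 and X. RefSeq also has a noncoding RNA gene, *Gm30948*, whose start lies within the stretch, and 8 of the 31 peaks were nearer to that start than to *Mir6388*. With the RefSeq starts, 13 KO and 10 WT peaks stayed with *Mir6388* over 392.5 kb. Of the 1245 genes with a longer stretch of their own, 974 had no KO peak. The most KO peaks for any of the 1245 was 15, which is more than the 13 that stayed with *Mir6388*.

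*Mir6388* named most of the peaks of the 4-Mb window without holding any of them itself. It named 17 of the 30 KO peaks of the window, or 56.7% (exact 95% interval 37.4% to 74.5%). In WT it named 14 of 18 peaks, or 77.8% (52.4% to 93.6%). Since the KO count chose the gene, the 2 shares were not compared. Of the other KO peaks, 8 were named *Adam6a*, a sperm protein gene between the V and D segments, 2 *Mir7094-2*, 2 *Ptprn2* and 1 *Zfp386*. The other WT peaks were named *Adam6a* in 2 cases and *Mir7094-2* and *Ptprn2* in 1 case each. Of these genes, only *Ptprn2*, which encodes a receptor-type phosphatase-like protein of secretory granules, held peaks within its body, 2 from KO and 1 from WT. The constant region genes *Ighm*, *Ighd* and *Igha* and the J segments *Ighj1* to *Ighj4* held no peak. The nearest KO peak to *Ighm*, which encodes the constant region of IgM, was 202718 bp away and the nearest WT peak 236765 bp away. *Adam6b*, *Vipr2*, *Crip1*, *Crip2*, *Mta1*, *Brf1*, *Pacs2* and *Tmem121*, which border the V segments or the constant regions, held no peak either.

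Along the locus, KO and WT peaks were interspersed, apart from the 4 KO peaks on the 5′ side. Of the 30 pairs of neighbouring *Mir6388* peaks, 18 joined a KO and a WT peak and 12 joined peaks of the same list, and 9 of the 30 were within 1 kb of each other. Gaps between neighbouring KO peaks ranged from 184 to 169996 bp with a median of 15624.5 bp. Gaps between neighbouring WT peaks ranged from 400 to 208178 bp with a median of 10315 bp. Over the merged order of both lists the median gap was 2291.5 bp. A WT peak lay within 10 kb of 11 of the 17 KO peaks, and a KO peak within 10 kb of 11 of the 14 WT peaks. No KO peak overlapped a WT peak here, but the same held for all 1554 and 1209 peaks of the lists. The methods class peaks as unique to a genotype or shared, so peaks common to both genotypes may not be in these lists, and how much the genotypes shared at this locus was not analysed here.

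The densest part lay downstream of *Mir6388*, where 17 of the 31 peaks fell within 75.55 kb (chr12:115566265-115641816). In KO, 9 peaks fell within 72.6 kb, and 6 stretches of 100 kb elsewhere in the genome held more KO peaks. In WT, 8 peaks fell within 52.3 kb, and 4 stretches of 100 kb held more. The first peak of this part was from KO, at chr12:115566265-115566552, 596 bp from *Ighv8-11*. Next came a WT peak at chr12:115589509-115589692 and a KO peak at chr12:115589714-115589952, which were 21 bp apart and were the closest pair of the 2 lists. Both lay near *Rpl7a-ps2*, a ribosomal protein pseudogene. Around *Ighv1-67* lay WT peaks at chr12:115601898-115602192 and chr12:115603942-115604206 and a KO peak at chr12:115604981-115605415, 774 bp after the second of them. Then 5 peaks followed, 5′ of the pseudogene *Ighv1-68*. These were KO peaks at chr12:115613322-115613593 and chr12:115613848-115614039 and WT peaks at chr12:115614522-115614804, chr12:115615205-115615432 and chr12:115616236-115616428. The last of them lay within *Gm5660*, an annotated pseudogene. On the 3′ side of *Ighv1-69* lay KO peaks at chr12:115618386-115618632 and chr12:115621535-115621691 and a WT peak between them at chr12:115620426-115620752. The stretch ended, 3′ of *Ighv8-12*, with KO peaks at chr12:115637913-115638190 and chr12:115638375-115638823, 184 bp apart, and a WT peak at chr12:115641450-115641816.

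**Figure D2:**
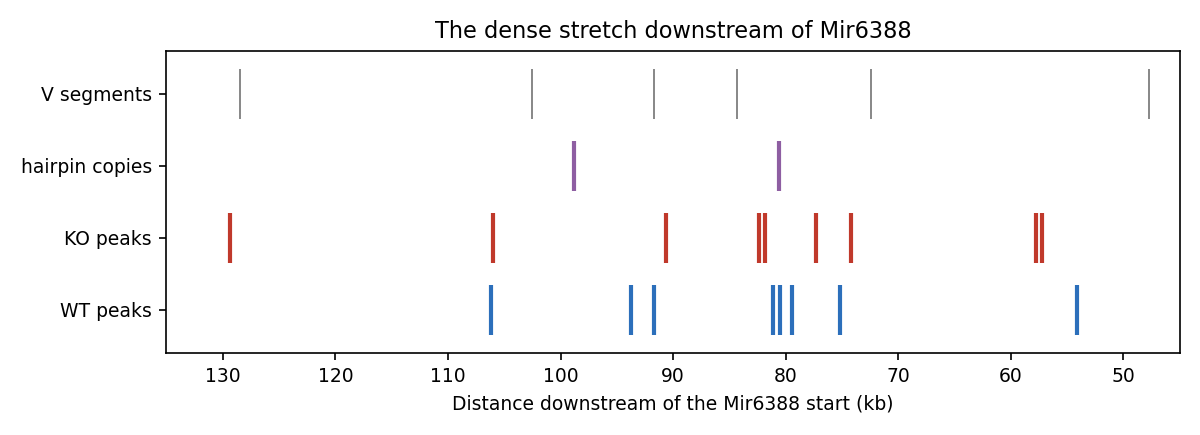
The densest part of the locus, drawn as in the map of the whole locus, by distance downstream of the Mir6388 start in kb. The 9 KO peaks and 8 WT peaks interleave, and tick widths are not to scale with peak widths.

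Farther 3′ of *Mir6388* the peaks were sparse and came in loose groups. A lone KO peak lay at chr12:115105518-115105702 and a lone WT peak at chr12:115149931-115150157. A WT peak at chr12:115185507-115185824 and a KO peak at chr12:115187675-115187851 were 1850 bp apart, 3′ of *Ighv1-54*. At *Ighv8-8*, a WT peak within the segment was followed by a KO peak at chr12:115295506-115295690 and, 231 bp on, by a WT peak at chr12:115295922-115296106. A lone KO peak at chr12:115396096-115396268 was 9107 bp from *Ighv1-62-1*. WT peaks at chr12:115504285-115504468 and chr12:115506013-115506187 lay 3′ of *Ighv1-64*. On the 5′ side of *Mir6388*, after a gap of 161062 bp without a peak, KO peaks lay at chr12:115802879-115803071 in *Ighv1-74* and at chr12:115821991-115822153, chr12:115826817-115827241 and chr12:115832508-115832738, all 3 of them 3′ of *Ighv1-75*.

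The 31 peaks mostly lay between V segments. The stretch from the first to the last peak held 37 annotated V segments, 28 of *Ighv1* and 9 of *Ighv8*, which made up 1.65% of its bases. By HOMER's annotation all 17 KO and 14 WT peaks were intergenic, and no peak of either list was named for an immunoglobulin segment. Of the other peaks of the lists, 63.8% in KO and 61.6% in WT were intergenic. Among the other peaks of the 4-Mb window it was 11 of 13 in KO and 3 of 4 in WT. Set against RefSeq segments, 1 of 17 KO and 2 of 14 WT peaks overlapped a segment, and 655 of the 7717 bases under the peaks, or 8.49%, were segment bases. The gap to the nearest segment had a median of 3157 bp in KO (range 0 to 14045) and 3003 bp in WT (0 to 7850). The nearest segment was of *Ighv1* for 24 of 31 peaks, or 77.4%, and *Ighv1* made up 75.7% of the segments in the stretch. Of the peaks that overlapped no segment, 18 lay 3′ and 10 lay 5′ of the nearest one. When starts of all RefSeq genes were considered, none of the 31 peaks was nearest to *Mir6388*. The nearest start was that of a V segment for 13 KO and 10 WT peaks and that of a pseudogene (*Rpl7a-ps2*, *Gm5660*, *Gm9245* or *Gm18341*) for the other 8.

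The 3 peaks within V segments are shown on the minus strand, in the direction of the segments, with exon bases in capitals. They carry what the V segments encode and are the only *Mir6388* peaks over antibody coding sequence.
WT peak in Ighv8-8, chr12:115294164-115294360: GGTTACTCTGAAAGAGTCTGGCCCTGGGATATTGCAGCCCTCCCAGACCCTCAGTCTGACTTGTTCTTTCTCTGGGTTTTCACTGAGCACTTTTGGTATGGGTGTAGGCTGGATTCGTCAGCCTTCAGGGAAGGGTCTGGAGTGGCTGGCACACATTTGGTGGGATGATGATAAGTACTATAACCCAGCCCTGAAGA
WT peak in Ighv1-67, chr12:115603942-115604206: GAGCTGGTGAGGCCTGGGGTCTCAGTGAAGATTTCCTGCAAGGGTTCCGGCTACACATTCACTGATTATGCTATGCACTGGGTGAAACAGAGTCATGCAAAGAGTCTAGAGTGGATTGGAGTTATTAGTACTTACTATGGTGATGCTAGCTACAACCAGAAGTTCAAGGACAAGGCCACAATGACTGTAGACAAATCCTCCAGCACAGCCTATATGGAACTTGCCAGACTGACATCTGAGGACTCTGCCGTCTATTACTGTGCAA
KO peak in Ighv1-74, chr12:115802879-115803071: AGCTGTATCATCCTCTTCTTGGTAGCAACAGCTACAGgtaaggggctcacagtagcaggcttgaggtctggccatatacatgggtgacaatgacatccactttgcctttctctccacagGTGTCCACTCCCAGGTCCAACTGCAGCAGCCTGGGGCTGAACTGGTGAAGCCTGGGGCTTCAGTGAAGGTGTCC
The 2 WT peaks, of 197 and 265 bp, lay wholly within the exon that encodes the variable domain. The KO peak of 193 bp held 111 exon bases, and the intron between the leader exon and the variable exon made up the rest.

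Peak widths were like those of the lists at large. KO peaks were 157 to 449 bp wide with a median of 231 bp, beside 232 bp over the other 1537 KO peaks. WT peaks were 175 to 367 bp wide with a median of 227.5 bp, beside 217 bp over the other 1195 WT peaks. The other peaks of the window had medians of 196 bp in KO and 198 bp in WT. The widest KO peaks, of 449, 435 and 425 bp, lay 3′ of *Ighv8-12*, 5′ of *Ighv1-67* and 3′ of *Ighv1-75*. The widest WT peak, of 367 bp, also lay 3′ of *Ighv8-12*. The median GC content was 41.2% in KO and 42.4% in WT, and 42.06% and 44.97% over the other peaks of each list.

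A minority of the peaks was centred in an L1 element, as was also the case for the other KO peaks of the 4-Mb window. An L1 element (a LINE retrotransposon) lay at the centre of 6 of 17 KO peaks, or 35.3% (exact 95% interval 14.2% to 61.7%), and of 59.8% of the other KO peaks (57.3% to 62.3%). In WT it was 4 of 14 peaks, or 28.6% (8.39% to 58.1%), and 51.9% of the other peaks (49.0% to 54.8%). Among the other peaks of the window it was 5 of 13 in KO (38.5%) and 2 of 4 in WT. These L1 elements were mostly of older families, with Lx7 in 3 KO and 2 WT peaks and Lx3_Mus, L1_Mus4, Lx2B2 and L1Md_F2 in 1 each. The young families L1Md_T and L1Md_A, which were at the centre of 49.6% of the other KO peaks and 43.6% of the other WT peaks, were at 1 KO peak and no WT peak. They were at 2 of the 13 other KO peaks of the window and at 2 of the 4 other WT peaks. Long terminal repeat (LTR) elements, namely MLT1D, RMER13B and MLTR25C, lay at 3 KO peaks and no WT peak, and a TG repeat at 1 WT peak. LTR elements were at 11.4% of the other KO peaks and 13.3% of the other WT peaks. Within the window they were at 3 of the 13 other KO peaks and 1 of the 4 other WT peaks. No repeat was named for 8 of 17 KO and 9 of 14 WT peaks, or 47.1% and 64.3%, beside 25.4% of the other KO peaks and 29.2% of the other WT peaks. Within the window, 5 of the 13 other KO peaks (38.5%) and 1 of the 4 other WT peaks had none.

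Copy number was measured by counting each stretch of 100 and of 31 bases (100-mers and 31-mers) of a peak over chromosomes 1 to 19 and X, in either orientation. The median 100-mer of a peak occurred once for 15 of 17 KO peaks, or 88.2% (exact 95% interval 63.6% to 98.5%), against 35.8% (33.4% to 38.2%) of the other KO peaks. It occurred once for all 14 WT peaks (76.8% to 100%), against 41.6% (38.8% to 44.4%) of the other WT peaks. The other peaks of the 4-Mb window were like the *Mir6388* peaks in this respect in KO, with 11 of 13 found once (84.6%), and 2 of 4 were found once in WT, so that single-copy sequence was not particular to the peaks named *Mir6388*. These shares describe 1 list per genotype and were not tested. The 2 exceptions among the *Mir6388* peaks were the L1Md_T peak at chr12:115105518-115105702, where the median 100-mer occurred 3 times and the median 31-mer 10904 times, and the KO peak at chr12:115396096-115396268, where both medians were 2. At 31 bases, fewer peaks were single copy, with a median 31-mer found once in 11 of 17 KO and 7 of 14 WT peaks. Of the 15 KO and 12 WT peaks with any repeated 31-mer, 9 in each list had every further copy within the 4-Mb window. Among the other peaks of the window, the peaks named *Adam6a* and *Zfp386* and the 2 KO peaks named *Mir7094-2* also had a median 100-mer found once. The exceptions there were the WT peak named *Mir7094-2*, with a count of 155, and the peaks in *Ptprn2*, all in L1Md_A, with counts of 6345 and 6084 in KO and 1704 in WT.

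The closest KO and WT pair and the 2 exceptions are shown on the plus strand, with bases under a 31-mer that occurs more than once in capitals. In the pair, single-copy and repeated bases alternated. Of the exceptions, the first was repeated throughout and the second over 148 of its 173 bases.
WT peak, chr12:115589509-115589692: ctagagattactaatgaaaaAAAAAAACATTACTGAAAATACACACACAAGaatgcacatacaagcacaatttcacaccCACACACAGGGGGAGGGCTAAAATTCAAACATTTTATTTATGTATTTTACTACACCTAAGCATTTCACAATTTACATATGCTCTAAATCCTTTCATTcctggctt
KO peak, chr12:115589714-115589952: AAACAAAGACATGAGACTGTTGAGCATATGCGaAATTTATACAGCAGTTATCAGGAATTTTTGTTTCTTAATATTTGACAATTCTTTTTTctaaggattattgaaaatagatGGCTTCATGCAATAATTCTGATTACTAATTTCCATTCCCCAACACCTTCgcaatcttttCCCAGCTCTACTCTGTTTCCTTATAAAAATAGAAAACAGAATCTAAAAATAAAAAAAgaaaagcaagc
KO peak in L1Md_T, chr12:115105518-115105702: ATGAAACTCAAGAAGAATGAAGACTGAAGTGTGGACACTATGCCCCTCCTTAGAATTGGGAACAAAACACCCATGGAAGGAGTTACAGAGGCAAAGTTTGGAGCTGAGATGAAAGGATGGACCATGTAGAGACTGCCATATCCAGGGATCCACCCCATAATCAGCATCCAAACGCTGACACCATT
KO peak near Ighv1-62-1, chr12:115396096-115396268: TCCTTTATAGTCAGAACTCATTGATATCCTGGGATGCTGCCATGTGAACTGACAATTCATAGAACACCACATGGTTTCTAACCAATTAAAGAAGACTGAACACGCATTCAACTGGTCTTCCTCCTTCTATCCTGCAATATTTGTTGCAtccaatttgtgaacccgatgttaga

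**Figure D3:**
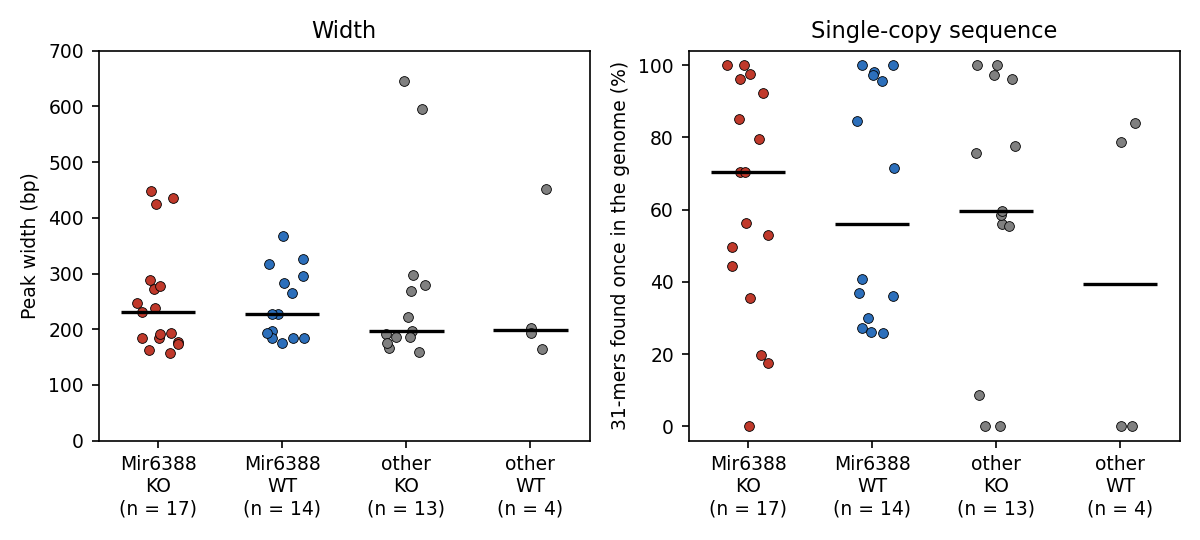
Width in bp (left) and percentage of 31-mers that occur once on chromosomes 1 to 19 and X (right) of each Mir6388 peak and each other peak of the 4-Mb window on chromosome 12, by list; points are peaks and lines are medians. Median widths of the Mir6388 peaks were 231 bp in KO and 227.5 bp in WT, and the share of 31-mers found once ran from 0 to 100% among KO peaks with a median of 70.3%.

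Nearly all peaks had copies elsewhere in the 4-Mb window, at a wide range of identities. When each peak was aligned to the 4-Mb window, 16 of 17 KO and 13 of 14 WT peaks had at least 1 other place where 80% or more of their bases aligned, and 23 of the 31 had 10 or more. The median number of copies was 16 over the 31 peaks and 6.5 over the 14 other peaks in the heavy-chain locus. Over the tiles of the locus described below it was 6. The identity of the best copy ranged from 74.9% to 99.5%, with a median of 94.9% in KO and 91.3% in WT. Copies at 95% identity or more were found for 8 of 17 KO peaks (47.1%) and 6 of 14 WT peaks (42.9%). Tiles of 228 bp, taken every 10 kb along the heavy-chain locus, gave 101 of 276 (36.6%) at that identity and 224 of 276 (81.2%) with any copy. The tiles covered the whole locus of 2.75 Mb, whereas the peaks lay in only 727 kb of it. Peaks and tiles are thus not on an equal footing, and a difference between them was not tested. Repeat elements were not left out, so a copy can be another element of the same repeat family and need not be a local duplication. The 2 peaks without a copy were the KO peak at chr12:115618386-115618632 and the WT peak in *Gm5660*, both in the densest part.

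**Figure D4:**
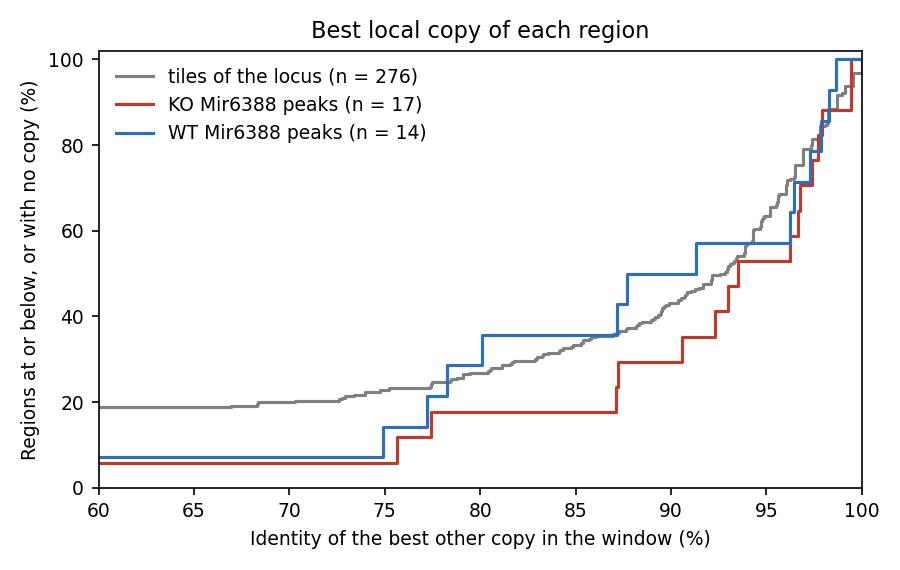
Cumulative share of regions, in percent, by the identity of their best other copy in the 4-Mb window of chromosome 12, for the 17 KO and 14 WT Mir6388 peaks and for 276 tiles of the heavy-chain locus; regions with no copy count from the left edge. A copy of at least 95% identity was found for 47.1% of KO peaks, 42.9% of WT peaks and 36.6% of tiles. The tiles cover the whole locus and the peaks only part of it, so the curves are not on an equal footing.

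Some of these copies placed peaks of different parts of the locus side by side. The WT peak in *Ighv8-8* and the KO and WT peaks after it had their best copies 226.5 kb away, at identities of 96.4%, 96.8% and 97.8%, within 430 to 2185 bp of a KO peak named *Mir7094-2* at chr12:115066934-115067231. The copy of the KO peak at chr12:115566265-115566552, which was 87.2% identical, overlapped that same KO peak. A second pair of duplicated stretches was 240.8 to 240.9 kb apart. It held the WT and KO peaks at chr12:115589509 and chr12:115589714 on one side, with best copies at 80.1% and 96.7% identity, and the KO peaks at chr12:115826817 and chr12:115832508 on the other, with best copies at 96.2% and 97.4%. Another pair of stretches was 488.9 kb apart. The best copies of the KO peaks at chr12:115637913 and chr12:115638375, at 93.5% and 87.1% identity, ended 689 and 54 bp before the WT peak at chr12:115149931-115150157. In all, the best copies of 4 of the 29 peaks that had one lay within 1 kb of another peak and those of 14 within 10 kb. The same counts were not made for the tiles, and peaks are crowded in this stretch. Such nearness is therefore not shown to be particular to the peaks. The peaks were nevertheless not copies of one another. Of 465 pairs among the 31 peaks, 1 aligned over at least 80% of the shorter peak, namely the L1Md_T peak of KO and the L1Md_F2 peak of WT at chr12:115620426-115620752, at 87.0% identity over 177 bp. Only 1 more pair aligned at all, the KO peak at chr12:115604981 and the WT peak at chr12:115615205, at 72.9% over 96 bp.

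The letters of recombination signals were found in few of the peaks and in few stretches of like width in the 4-Mb window. The heptamer CACAGTG, on either strand, was present in 1 of 17 KO and 1 of 14 WT peaks, or 6.45% of the 31. It was present in 4.44% of all KO peaks, in 4.71% of all WT peaks and in 6.28% of 17542 windows of 228 bp that tile the 4-Mb window. The nonamer ACAAAAACC was in none of the 31 peaks, in 4.50% of all KO peaks, in 3.64% of all WT peaks and in 0.827% of the windows. The octamer ATGCAAAT of V segment promoters, also read on both strands, was in none of the 31 peaks, in 4.63% of all KO peaks, in 3.23% of all WT peaks and in 3.35% of the windows. With 31 peaks, the absence of the nonamer and the octamer was not tested, and it concerns only the bases under the peaks.

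The probes used for the pulldown had no long exact match under the peaks. The longest exact match of the 16 probes of 20 bases, on either strand, was 7 to 11 bases in KO and 7 to 9 bases in WT, with a median of 8 in each. The medians over all 1554 KO and all 1209 WT peaks were also 8. The match of 11 bases was between the probe Meg3-8 and the KO peak at chr12:115826817-115827241. With mismatches allowed but no gaps, the best match was 12 to 14 of 20 bases in KO and 12 to 16 in WT. Over all peaks it was 11 to 16 in KO and 10 to 16 in WT. The *Mir6388* peak that matched 16 bases was the WT peak at chr12:115295922-115296106.

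Peaks were not found at the other antigen receptor loci, which are built of similar arrays of segments. Over its annotated segments, *Igh* spans 2.75 Mb and held 28 KO and 17 WT peaks, or 10.2 and 6.17 per Mb. No KO or WT peak was listed within the light-chain loci *Igk* (3.17 Mb, 168 segments) and *Igl* (0.199 Mb, 12 segments). The T cell receptor loci *Tra*/*Trd* (1.80 Mb, 202 segments), *Trb* (0.667 Mb, 53 segments) and *Trg* (0.174 Mb, 15 segments) also had none listed. Over chromosomes 1 to 19 and X the lists held 0.59 KO and 0.459 WT peaks per Mb. At such rates few or no peaks would fall in loci of these lengths. *Igh* was reached through a gene picked for its KO peak count, so this contrast was not tested. Within *Igh*, *Mir6388* was the name given to 17 of 28 KO peaks and 14 of 17 WT peaks.

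The 3 genes with peak counts most like those of *Mir6388*, by the distance between their KO and WT counts, were *Uqcrb* with 13 KO and 18 WT peaks, *Cntnap5a* with 10 and 8, and *Esp34* with 11 and 6. *Uqcrb* encodes a subunit of respiratory complex III, *Cntnap5a* a neuronal cell adhesion protein and *Esp34* an exocrine gland-secreted peptide. The peaks of *Uqcrb* spanned 154 kb of chromosome 13, those of *Esp34* 102.3 kb of chromosome 17 and those of *Cntnap5a* 2966 kb of chromosome 1. The median 100-mer occurred once for all 17 peaks of *Esp34*, for 14 of 31 of *Uqcrb* and for 1 of 18 of *Cntnap5a*, where 17 of 18 lay in L1 elements. By this measure the *Mir6388* peaks, with 29 of 31, lay closest to those of *Esp34*.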

How the data were processed

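The values were the *Meg3* ChIRP-seq peak lists deposited for WT MEFs and for MEFs without β-actin, 1 each. To make them, the authors used Trimmomatic on the reads, BWA-MEM with GRCm38 and Picard for duplicates. Peaks of 4 merged libraries a genotype were then called by MACS2 against input (q threshold 0.05), with HOMER annotation on mm10. Tool versions are not given in the sources used here. Positions and distances are in bp, and the score deposited by the authors is 1 for every peak. The lists hold no read counts, so depth is unknown, and exact Clopper-Pearson 95% intervals cover the counting of peaks only.

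With 1 list per genotype and members chosen by their count, no test was made. The gene, the lists of features and the measures were chosen with earlier results of these data known. The genes named were *Mir6388*, those named by a peak in a 4-Mb window around the heavy-chain locus, segments or genes overlapped by or nearest to a *Mir6388* peak, landmarks of the region and the 3 genes of most similar counts. Genes and sequences are from RefSeq on GRCm38.p6, the build of the lists. The 100-mers and 31-mers of each peak were counted on chromosomes 1 to 19 and X, and the counting recovered planted copies in 100 of 100 simulated windows at each length. Alignments were made with BLAST+ 2.17.0 at an expect value of 1e-05. Probe sequences came from the supplement of the paper. Scripts ran in Python 3.11.15 (scipy 1.17.1, numpy 2.4.6, numba 0.67.0, pandas 2.3.3, matplotlib 3.10.9). Alternatives were another gene annotation, merging of peaks within 1 kb, limits on distance, single-copy peaks only, 31-mers and looser overlap or alignment rules.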

Additional observations from a re-analysis of the deposited data

How the results depend on the processing

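Of 35 alternative values for 21 results, 24 stayed within 1.5 times a count, within the spread of a median or within the interval of a share. Naming each peak by the nearest start of any RefSeq gene, V segments included, left 0 KO and 0 WT peaks for *Mir6388*, since other annotated starts lay nearer. Keeping peaks within 100 kb of the *Mir6388* start left 7 KO and 7 WT peaks. Counting a V segment within 1 kb as an overlap raised the KO count from 1 to 3 and left the WT count at 2. With 31-mers in place of 100-mers, the median stretch was repeated in 6 KO and 7 WT peaks, against 2 and 0, as shorter stretches recur more often. The best ungapped alignment of a probe matched a median of 13 of 20 bases in KO and 13 in WT, which counts mismatched stretches that the exact match does not. Peaks extended by 1 kb on each side held the heptamer in 9 KO and 8 WT cases, over longer sequence. No share over other stretches of that length is given here, so these counts have no reference. No paired analysis was possible because each genotype has 1 pooled list. For the same reason no replicate could be left out, and no difference between KO and WT at this locus could be set against a spread between cultures. Without read counts, peaks near the calling threshold cannot be told from strong ones, and a place with no listed peak is not shown to lack signal.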
